A study of Rattus norvegicus with 12 samples.

Results

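In lumbar spinal cord, 50 transcripts had levels in rats with a ligated sciatic nerve (CCI) that lay apart from the levels in both sham-operated rats (Sham) and ligated rats given levo-tetrahydropalmatine (CCI+THP). They were selected on these values: the scaled count (CPM, a transcript's count relative to the library total) averaged at least 1 over the 12 libraries, the 4 CCI values were all above or all below the 8 values of the other groups, and the CCI mean differed from the mean of those 8 by at least 1.2-fold in that direction. Of 41078 transcripts listed, 17937 reached the minimum CPM, and 22 of these were higher and 28 lower in CCI. The separation of CCI from the other groups is therefore the way the transcripts were found and is given as a description, with no test.

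All rats were wild type per the labels, and cord segments L4 to L6 were taken on postoperative day 10, and each of the 3 groups has 4 libraries. Sham rats had surgery that exposed the nerve without a ligature, CCI rats had the ligature, and CCI+THP rats had the ligature plus THP treatment. The labels give no strain, age, sex, dose or schedule, and no group of unligated rats given THP is among the samples, so an effect of THP without ligation was not measured. Chronic constriction injury is a rat model of neuropathic pain: loose ligatures around the sciatic nerve damage sensory and motor axons that enter and leave the lumbar cord. In the dorsal horn such injury is known to be followed by activation of microglia and astrocytes and by altered transmission between sensory neurons. Levo-tetrahydropalmatine is an alkaloid of Corydalis plants with known analgesic and dopamine receptor blocking activity, and the series title links it to the pattern receptor Clec7a and the NLRP3 inflammasome.

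The files list transcripts by Ensembl identifier and pair none with a gene symbol. None of the 41078 identifiers (0) could be matched, because the RefSeq table of the GRCr8 assembly used here listed no Ensembl identifiers. The functions, positions and sequences of the 50 transcripts are therefore not given, and neither pathway genes nor cell type markers were counted. A change in the amount of a transcript, in the choice between isoforms of 1 gene and in the cells that make up the tissue cannot be told apart in these bulk samples. Library totals were 87.9 to 99.8 M (mega) estimated counts in Sham, 82.9 to 95.3 M in CCI and 85.7 to 111 M in CCI+THP. The 10 most abundant transcripts of each library held 12.6 to 14.8% of counts in Sham, 11.1 to 14.1% in CCI and 12.6 to 14.7% in CCI+THP. The ranges of the 3 groups overlapped for both measures.

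The number of transcripts set apart in CCI was the smallest of the 3 groups. The same rule found 395 transcripts when Sham was the group set apart, 17 higher and 378 lower, and 101 when CCI+THP was, 73 higher and 28 lower. As shares of the 17937 transcripts, the rule held for 2.20% with Sham, 0.279% with CCI (0.123% higher and 0.156% lower) and 0.563% with CCI+THP. The rule was also applied to all 492 sets of 4 libraries drawn from more than 1 group. These mixed sets gave 7 to 92 transcripts, with a median of 28 and quartiles of 23 and 37. Of the 492 mixed sets, 47 gave at least 50. The count for CCI was thus above the upper quartile of the mixed sets and below their highest value, while the counts for Sham and CCI+THP were above the highest.

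**Figure D1:**
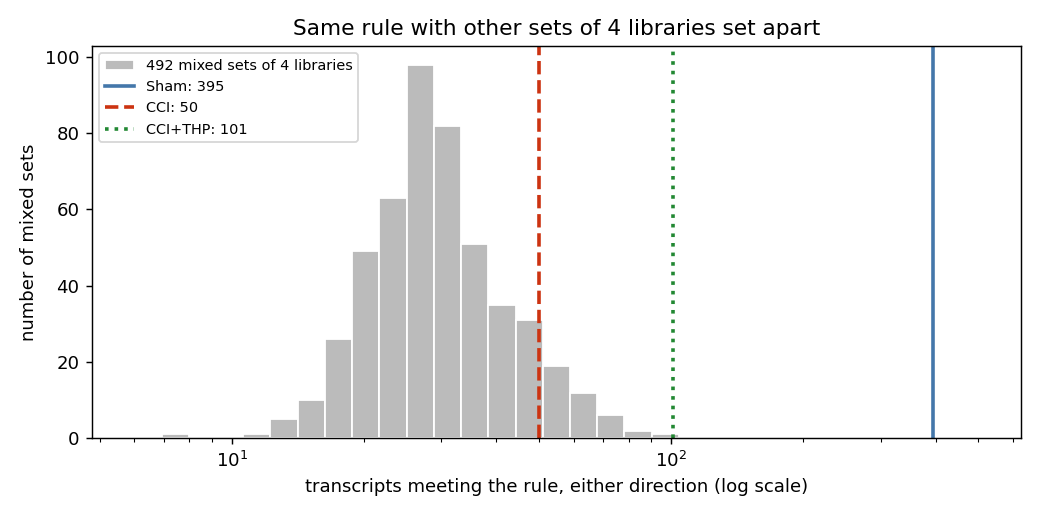
Number of transcripts meeting the rule, higher and lower together, on a log axis, for the 492 mixed sets of 4 libraries (grey bars, number of sets on the y axis) and for each study group (vertical lines). CCI, at 50, lies within the range of the mixed sets, which ends at 92, and CCI+THP (101) and Sham (395) lie beyond it.

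Counted by direction, CCI stood within the mixed sets as well. The 22 transcripts higher in CCI compare with a median of 14 over the mixed sets (3 to 75), of which 84 gave at least 22. The 28 transcripts lower in CCI compare with a median of 14 (3 to 58), of which 33 gave at least 28. The rule in these mixed sets sees any difference shared by 4 libraries, including differences between the study groups, so the sets are not free of group effects.

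Most of the 50 differences were small. The larger mean over the smaller, between CCI and the other 8 libraries, had a median of 1.32-fold among the 22 higher transcripts (quartiles 1.23 and 1.39, highest 2.11) and 1.32-fold among the 28 lower ones (quartiles 1.29 and 1.42). At least 1.5-fold was reached by 5 of the higher and 7 of the lower transcripts, and at least 2-fold by 2 and 3. The gap between the CCI library nearest to the others and the nearest other library, on log2(CPM + 0.5), had a median of 0.05 in the higher and 0.04 in the lower transcripts. It reached 0.1 in 5 higher and 7 lower transcripts, so in the other 38 a shift of 1 library by less than that would have closed it. The transcripts covered a wide range of abundance, with a median of 7.08 CPM for the higher (1.94 to 957) and 4.33 CPM for the lower (1.37 to 1004), against 15.9 CPM for all 17937.

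Members at the limits of the rule show how finely it divides. The higher transcript just inside the fold limit was at 1081 CPM in CCI and 895 CPM in the others (1.21-fold), and the one just outside, at 51.5 and 43.1 CPM, reached 1.195-fold. Among the lower transcripts those just inside and just outside had ratios of 1.21 and 1.197. With no minimum fold, 65 transcripts would be higher and 57 lower in CCI, which is 0.362% and 0.318% of those measured. At the limit on CPM, the scarcest higher member averaged 1.94 CPM and the nearest transcript below the limit 0.949 CPM. For the lower transcripts these means were 1.37 and 0.828 CPM.

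**Figure D2:**
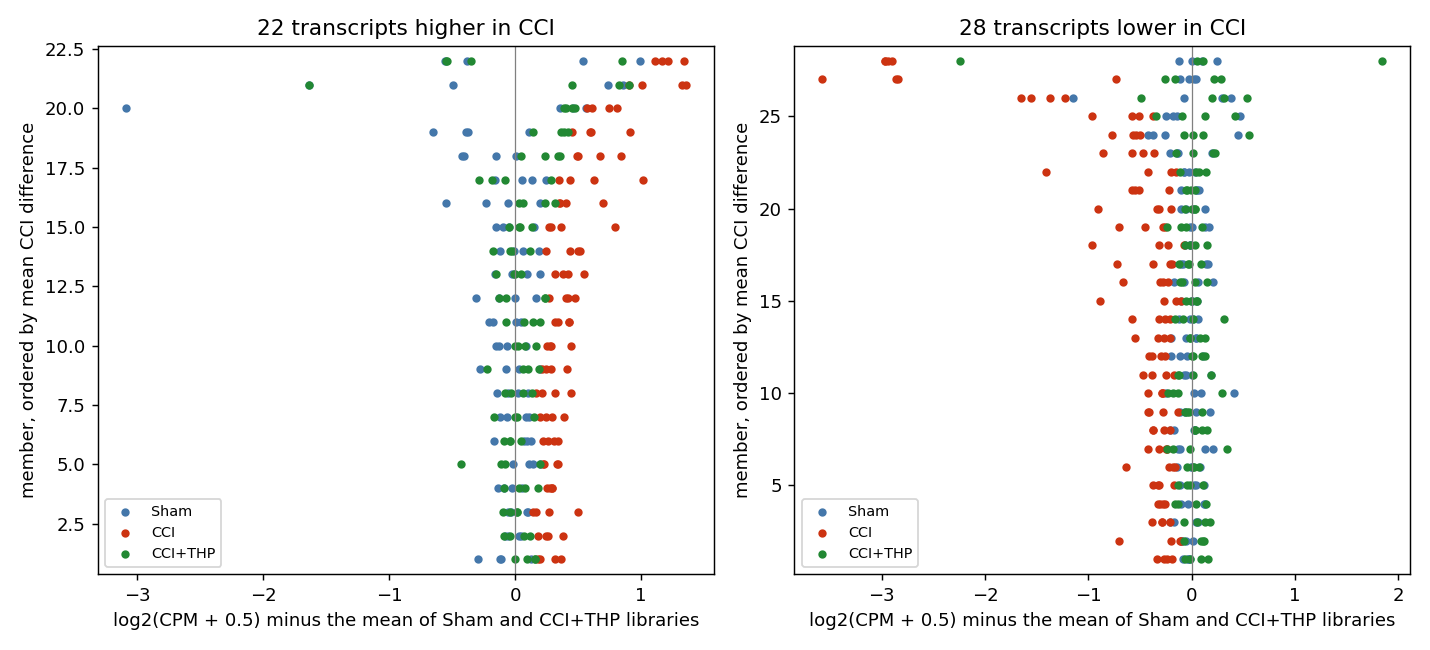
Each row is 1 of the 22 transcripts higher (left) or 28 lower (right) in CCI, and each point is 1 library, plotted as log2(CPM + 0.5) minus the mean of the 8 Sham and CCI+THP libraries of that transcript. CCI points lie beyond all others in each row by construction, mostly by a narrow margin, and a few rows hold single Sham or CCI+THP libraries far from their own group.

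CCI replicate 3 was the most distant CCI library most often. It was farthest from the other groups in 12 of the 22 higher and 16 of the 28 lower transcripts, whereas CCI replicates 2 and 4 were the nearest in 16 and 21 between them. The median difference of the lower transcripts from the mean of the 8 other libraries was -0.58 in CCI replicate 3 and between -0.31 and -0.28 in the other CCI libraries, on log2(CPM + 0.5). For the higher transcripts it was 0.43 in CCI replicate 3 and 0.33 to 0.38 in the others. With the mean taken over the other 3 CCI libraries, 40 of the 50 transcripts kept a difference of at least 1.2-fold, 17 higher and 23 lower. Without CCI replicate 1, 2 or 4, this was kept by 50, 49 and 50. The full rule also lost members when a library of another group was left out. It kept 18 of the 22 higher and 28 of the 28 lower transcripts without Sham replicate 1. Without CCI+THP replicate 1 it kept 20 and 26, and without CCI+THP replicate 3 it kept 20 and 27. Without any 1 of the remaining Sham and CCI+THP libraries it kept at least 21 and 26. When each group mean was removed, pairs of higher transcripts had a median correlation across the 12 libraries of 0.02 and pairs of lower ones 0.12, against 0.02 for pairs of all 17937 transcripts; libraries are shared by all pairs. Pairs of a higher and a lower transcript had a median of -0.05. By these medians the higher transcripts moved together within groups about as little as all transcripts did, and the lower ones somewhat more. The values that chose the members enter these correlations, so the medians are a description. The part that CCI replicate 3 has in them was not tested.

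ENSRNOT00000025652.8 had the widest gap of the higher transcripts. Its level in Sham was 2.05, 2.57, 2.93 and 2.08 CPM in replicates 1 to 4. In CCI it was 5.60, 4.29, 4.33 and 4.95 CPM. In CCI+THP it was 3.03, 3.88, 3.81 and 3.52 CPM. No 2 groups overlapped, and CCI+THP lay between Sham and CCI: the means were 2.41 ± 0.422, 4.79 ± 0.617 and 3.56 ± 0.386 CPM (SD, n = 4 each) in Sham, CCI and CCI+THP. CCI+THP thus kept 48.4% of the difference between CCI and Sham.

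ENSRNOT00000066174.2, the other higher transcript singled out by its gap, took widely spaced levels within the groups. In CCI the 4 libraries were close together at 131, 136, 148 and 126 CPM. In Sham replicates 1 and 3 were at 44.6 and 39.4 CPM, replicate 4 at 84.6 CPM and replicate 2 at 116 CPM. In CCI+THP replicates 1, 3 and 4 were at 39.8, 45.5 and 39.6 CPM and replicate 2 at 105 CPM. The high level was therefore not confined to CCI: 3 of the 8 other libraries were above 80 CPM, and the other 5 were below 46 CPM.

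The member least like ENSRNOT00000066174.2 was a lower transcript whose level moved opposite to it across libraries. This lower transcript was at 34.9, 43.8, 32.5 and 39.6 CPM in CCI, at 135, 46.5, 127 and 98.0 CPM in Sham, and at 119, 73.3, 150 and 128 CPM in CCI+THP. The libraries with more ENSRNOT00000066174.2 generally had less of this transcript, and Sham replicate 4 was intermediate in both, at 84.6 and 98.0 CPM. Pearson's r of log2(CPM + 0.5) was -0.94 over the 12 libraries and -0.90 over the 8 Sham and CCI+THP libraries, which do not include the group that the rule set apart. The sum of both levels was 173 ± 9.66 CPM in Sham, 173 ± 8.36 CPM in CCI and 175 ± 16.0 CPM in CCI+THP (SD, n = 4 each) and ran from 159 to 196 CPM over the 12 libraries. The group means of the sum differed by less than the spread between libraries, whereas each transcript alone lay apart in CCI. The pair was noticed in the data and chosen from all pairs with the named transcripts, so r is a description with no test.

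**Figure D3:**
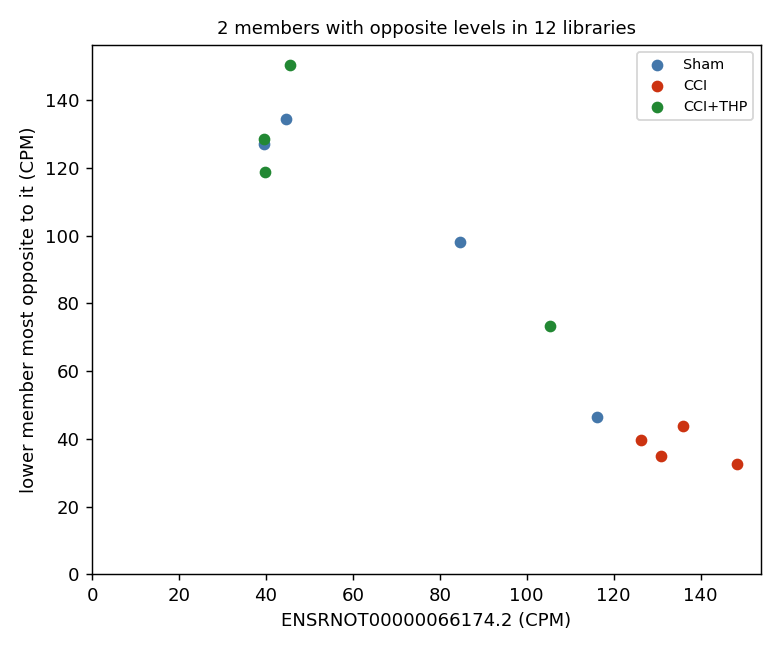
Level of ENSRNOT00000066174.2 (x axis, CPM) and of the lower member most opposite to it (y axis, CPM), 1 point per library. The 4 CCI libraries sit at 126 to 148 and 32.5 to 43.8 CPM, next to Sham replicate 2 at 116 and 46.5 CPM, and the points fall along 1 descending line.

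ENSRNOT00000032780.7 had the widest gap of the lower transcripts and was near absent in CCI. The 4 CCI libraries held 0, 2, 1 and 0 estimated counts. In Sham it was at 3.70, 4.15, 3.11 and 3.42 CPM, from 310 to 382 counts per library. In CCI+THP it was at 13.6, 3.57, 3.72 and 0.328 CPM, from 1336 counts in replicate 1 to 30 counts in replicate 4. Sham libraries were close together, whereas CCI+THP libraries spread on both sides of Sham, and CCI+THP replicate 4 was the nearest to CCI.

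ENSRNOT00000010546.7, next among the lower transcripts, was at 0.417, 3.46, 0.405 and 0.0525 CPM in CCI. In Sham it was at 6.17, 5.57, 6.29 and 5.94 CPM. In CCI+THP it was at 4.99, 7.13, 5.40 and 7.50 CPM. CCI replicate 2 stood nearer to the other groups than to the CCI libraries at 0.0525 to 0.417 CPM, and Sham and CCI+THP overlapped. The means were 5.99 ± 0.316, 1.08 ± 1.59 and 6.25 ± 1.25 CPM (SD, n = 4 each) in Sham, CCI and CCI+THP. The member most like it was another lower transcript, at 1.32, 1.78, 1.37 and 1.29 CPM in CCI, 1.99 to 2.31 CPM in Sham and 2.07 to 2.23 CPM in CCI+THP, where Pearson's r of log2(CPM + 0.5) over the 12 libraries was 0.96. The rule gives both of them low values in CCI, which r includes.

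**Figure D4:**
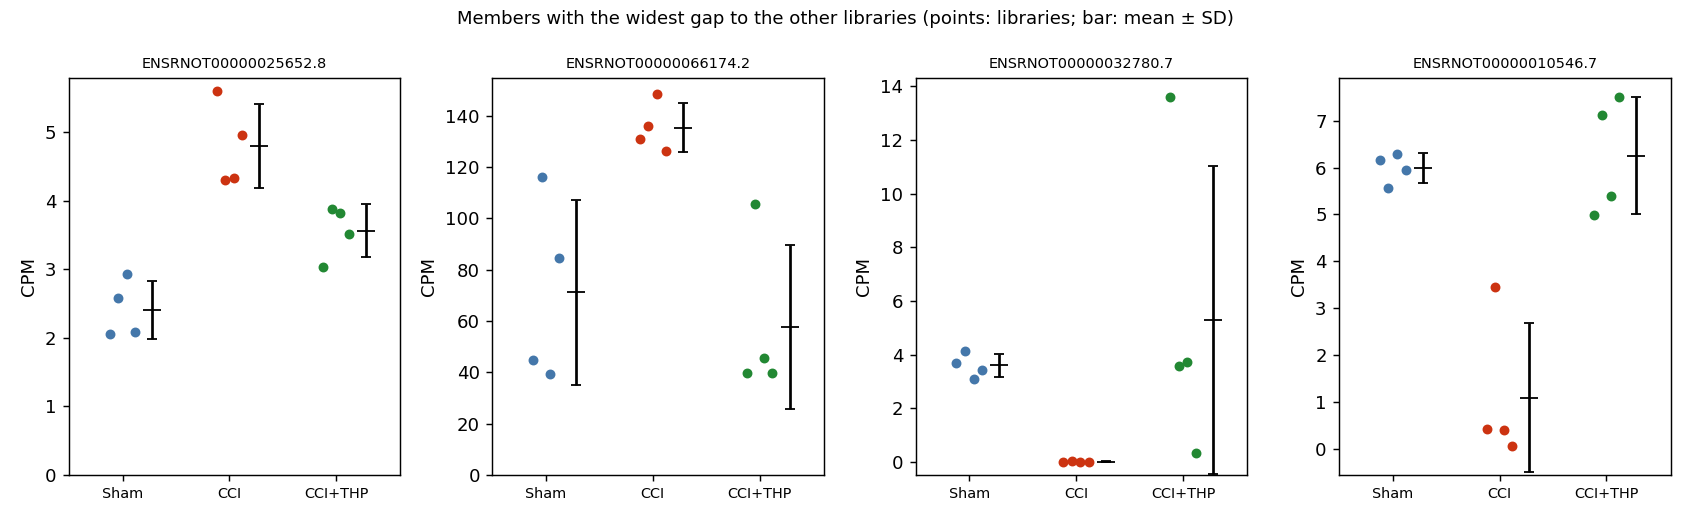
CPM of the 2 higher and 2 lower transcripts with the widest gaps in Sham, CCI and CCI+THP; points are libraries and the black bar is the mean ± SD (n = 4). CCI libraries of ENSRNOT00000032780.7 lie at 0 to 0.0241 CPM, and the CCI+THP bars of ENSRNOT00000066174.2 and ENSRNOT00000032780.7 include replicate 2 at 105 CPM and replicate 1 at 13.6 CPM.

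The most abundant members of the 2 directions differed from the mean of the other libraries 1.21-fold and 1.29-fold. The most abundant higher transcript was at 1080, 1091, 1092 and 1061 CPM in CCI, 811 to 927 CPM in Sham and 841 to 1009 CPM in CCI+THP. The most abundant lower one was at 923, 889, 681 and 876 CPM in CCI, 962 to 1248 CPM in Sham and 1002 to 1201 CPM in CCI+THP. Some higher members had single libraries of other groups at or near 0. One was at 0.152 CPM in Sham replicate 2, against 6.61 to 7.68 CPM in the other Sham libraries and 6.77 to 7.21 CPM in CCI+THP. Without Sham replicate 2, 21 of the 22 higher transcripts still met the rule, and this one fell short of 1.2-fold. Another was listed at 0 in Sham replicate 3 and CCI+THP replicate 2, and its remaining levels outside CCI were 0.604 to 2.41 CPM, the highest of them nearly equal to the lowest CCI value of 2.41 CPM.

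Whether the 2 groups on the same side of CCI differed from each other was asked by comparing CCI+THP with Sham. The CCI libraries are not part of this contrast, but the rule holds both groups to 1 side of CCI, and the fit over 12 libraries takes its estimate of the spread from CCI too. None of the 50 passed (edgeR quasi-likelihood test, Benjamini-Hochberg adjusted over 24037 transcripts, 0 members under 0.05), where 1.02% of all transcripts tested did. Among 50 transcripts a count of 0 is near that share, so nothing about the members is read from it. The 24037 transcripts tested passed a different filter from the 17937 among which the members were found. At an unadjusted p under 0.05 there were 2 members, both higher transcripts with more in CCI+THP than in Sham, against 10.1% of all transcripts. DESeq2 called these 2 (3.57% of all transcripts called) and limma voom called 0 (0.978% called). With only the 8 Sham and CCI+THP libraries in the fit, edgeR called 0 members (0.757% of all transcripts), and without Sham replicate 4 it called 1 (0.470% of all).

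The higher transcripts had a median log2 fold change of CCI+THP against Sham of 0.05 (-0.33 to 0.63), 14 positive and 8 negative. The lower transcripts had a median of 0.03 (-0.18 to 0.55), 16 positive and 12 negative, and all 24037 transcripts tested had a median of -0.0011. The standard error of a member's log2 fold change had a median of 0.13 (0.0609 to 1.30), or 0.12 (0.0445 to 1.50) when CCI was left out of the fit, and a missed threshold does not show that CCI+THP and Sham were alike. Between Sham and CCI+THP the 4 values did not overlap in 3 members, all with CCI+THP higher, 2 of them higher and 1 lower in CCI; over all 17937 transcripts 7.91% did not overlap (5.99% with CCI+THP higher). The rule asks both groups to avoid CCI, which limits how far apart they can lie.

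ENSRNOT00000025652.8 had a log2 fold change of 0.54 ± 0.16 (SE) in CCI+THP against Sham (edgeR adjusted p = 0.203, and 0.0348 to 0.425 over the alternatives). The other transcript below an unadjusted p of 0.05 was at 12.04, 12.22, 9.96 and 17.24 CPM in Sham, 24.4, 24.4, 22.0 and 30.5 CPM in CCI, and 21.0, 21.5, 20.7 and 17.6 CPM in CCI+THP. All its CCI+THP libraries lay above Sham, and its log2 fold change was 0.63 ± 0.16 (SE; edgeR adjusted p = 0.108). These 2 members were set apart from Sham in both ligated groups, with CCI+THP in between. ENSRNOT00000066174.2 had a log2 fold change of -0.33 ± 0.39 and ENSRNOT00000032780.7 of 0.55 ± 0.78 (SE; edgeR adjusted p 0.882 and 0.916). For ENSRNOT00000010546.7 it was 0.04 ± 0.81 (SE; edgeR adjusted p = 0.995), a standard error that took in the spread of the CCI libraries. It was 0.43 without CCI replicate 2, 0.31 with limma voom, and 0.15 with only the Sham and CCI+THP libraries in the fit (edgeR adjusted p = 0.956). The signs of the last 3 log2 fold changes turned under some alternatives.

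**Figure D5:**
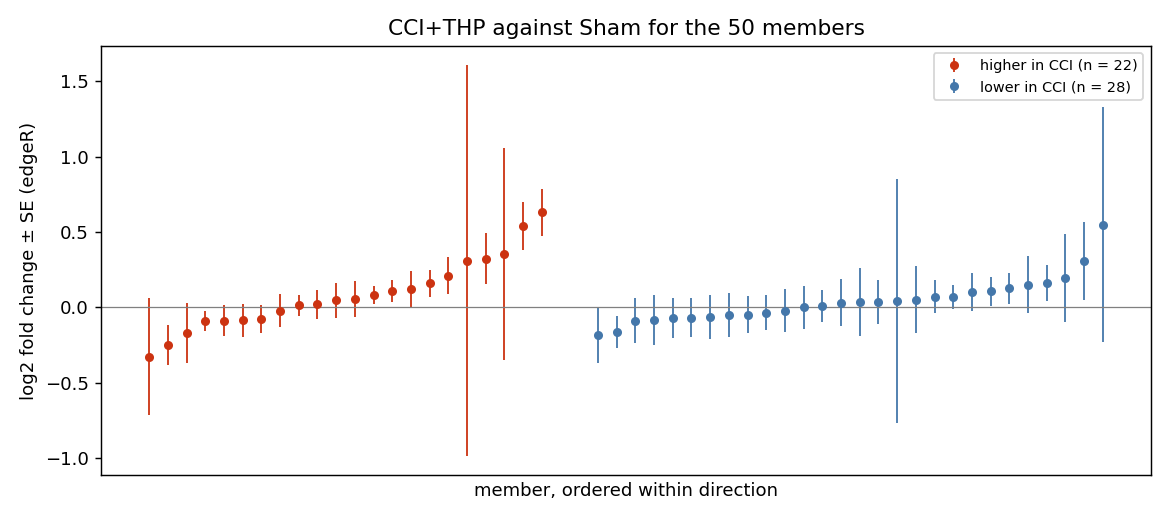
Log2 fold change of CCI+THP against Sham fitted by edgeR (y axis; bars are 1 SE) for the 22 members higher and the 28 lower in CCI, ordered within each direction. Of the 50, 40 lie within 0.2 of 0, 2 higher members lie above 0.5 with bars of 0.16, and the widest bars belong to members with libraries at or near 0.

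The mean of CCI+THP lay between those of Sham and CCI in 14 of the 22 higher and 11 of the 28 lower transcripts. In the other 8 and 17 it lay on the far side of Sham. The share of the CCI minus Sham difference still present in CCI+THP had a median of 15.9% in the higher transcripts (quartiles -13.6 and 32.4%) and -11.6% in the lower ones (-38.3 and 8.71%). It exceeded 50% in 3 higher transcripts and in 0 lower ones. The other library nearest to CCI belonged to CCI+THP in 14 of 22 higher transcripts and to Sham in 17 of 28 lower ones. These shares follow in part from the rule, which keeps CCI+THP on the Sham side of CCI.

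The fits that contain CCI were used by the rule and are given for completeness. In CCI against Sham 3 of the 50 passed (edgeR, adjusted p under 0.05, where 0.599% of all 24037 transcripts did): ENSRNOT00000025652.8, the intermediate transcript at 22.0 to 30.5 CPM in CCI, and ENSRNOT00000032780.7. This count was 1 without Sham replicate 1 (0.454% of all transcripts called), without CCI replicate 1 (0.311%) and in a fit of those 8 libraries alone (0.329%). It was 6 when scaled by library totals alone (0.732%) and 20 with DESeq2 (2.71%). In CCI+THP against CCI 0 passed, where 0.0125% of all transcripts did, and 43 were at an unadjusted p under 0.05, against 6.96% of all. DESeq2 called 15 and limma voom 0 (0.674% and 0.00416% of all transcripts). Both comparisons share the CCI libraries on which the members were chosen. In CCI+THP against CCI edgeR called 1 without Sham replicate 2 (0.0204% of all transcripts), without CCI+THP replicate 1 (0.0286%) and without CCI+THP replicate 4 (0.00409%).

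Which transcripts met the rule depended on the scaling. With TMM-scaled CPM 19 were higher and 32 lower, and these held 16 of the 22 and 24 of the 28. With DESeq2 size factors the counts were 20 and 32, holding 17 and 24.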

How the data were processed

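RNA sequencing of rat lumbar cord was deposited as 12 files of estimated counts, whole numbers per Ensembl transcript with no scaling for depth or length. The deposited counts come from the authors' own pipeline, and the submitters' processing notes name build rn4; the aligner, counting tool and annotation release were not given in the sources used here. Counts from 8 to 40 that are multiples of 4 were 1.24 times as frequent as their neighbours, so a count may not be 1 read. Members and lists were chosen with earlier results of these data known. CPM used library totals (82.9 to 111 M). Tests used edgeR 4.0.16 (R 4.3.3): filterByExpr (minimum count 10, total 15), TMM, quasi-likelihood F tests over all 12 libraries, Benjamini-Hochberg over 24037 transcripts, two-sided. Alternatives were DESeq2 1.42.0, limma 3.58.1, other scalings, limits and left-out libraries. The named transcripts are the 2 per direction with the widest gap on log2(CPM + 0.5). The code was tested on simulated data. The labels' numbers do not say that libraries are separate animals. The design text gives 4 rats per group, and the tests set each difference against the spread estimated from these libraries.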

Additional observations from a re-analysis of the deposited data

Results flagged for a closer look

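Dixon's ratio was computed for 12 groups of 4 values, those of the 4 named transcripts, and 2 groups held a single library far from the rest. The limit used flags about 1 in 20 groups of unselected, normally distributed values. The named transcripts were chosen by their gap, so that rate need not hold for them. CCI+THP replicate 2 had 105 CPM of ENSRNOT00000066174.2, against 39.6 to 45.5 CPM in the other treated libraries. CCI replicate 2 had 3.46 CPM of ENSRNOT00000010546.7, against 0.0525 to 0.417 CPM in the other untreated ligated libraries.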

How the results depend on the processing

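With no minimum mean CPM 49 transcripts were higher in CCI, and with a minimum of 5 CPM 14 were higher and 11 lower. With no minimum fold the counts were 65 and 57, and with 1.5-fold 5 and 7. Leaving out 1 library gave 28 to 85 higher and 34 to 111 lower, since fewer values must be separated. Members called in CCI+THP against Sham were 2 with DESeq2 (3.57% of all) and 0 to 1 without 1 library. In CCI against Sham they were 6 with library totals only (0.732% of all transcripts called), 20 with DESeq2 (2.71%), 1 with only those 8 libraries (0.329%) and 1 to 4 without 1 library. In CCI+THP against CCI they were 15 with DESeq2 (0.674%) and 0 to 1 without 1 library. With the replicate number as a block, the members called were 0, 2 and 0 in these comparisons; same-numbered libraries did not deviate together (r -0.0487 to 0.0775 over 12 pairs), and 5 of 12 libraries correlated best with their own number. In CCI+THP against Sham the log2 fold change of ENSRNOT00000066174.2 ran from -0.80 to 0.026 when 1 library was left out, with the positive value without Sham replicate 2. That of ENSRNOT00000032780.7 ran from -0.52 to 0.94, negative without CCI+THP replicate 1, and was -0.34 with limma voom and -0.19 with the replicate block. That of ENSRNOT00000010546.7 ran from -0.056 to 0.14, negative without CCI+THP replicate 2 or 4, and was -0.0073 with the block. The cause was not tested. All 4 named transcripts stayed above an adjusted p of 0.05 in CCI+THP against Sham, except ENSRNOT00000025652.8 with DESeq2 (adjusted p = 0.0348). Scarce transcripts and 4 libraries a group limit the precision.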
